A study of Danio rerio with 6 samples.

Results

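The change of microRNAs (miRNAs) between 24 and 48 hours post-fertilization (hpf) was measured in whole zebrafish embryos of the wild-type AB strain, in 214 of 230 mature miRNAs. A mature miRNA was kept if 2 or more of the 6 small RNA libraries reached a value of 10, after the rows of its several precursors, if any, had been averaged. At 48 hpf there were 2 libraries, 1 from embryos injected with MO-Tbx5a and 1 from embryos injected with MO-Ct. At 24 hpf there were 4, with 2 batches per morpholino. MO-Tbx5a is an antisense oligonucleotide directed at the start of translation of tbx5a, the zebrafish gene of a T-box transcription factor of the heart and forelimb field, and MO-Ct is the control morpholino. All embryos of both stages received 1.5 ng of a morpholino, so no uninjected embryo is in the comparison, and RNA was taken from 50 pooled embryos per library. The stage comparison pools both morpholinos, and it therefore does not depend on which 48 hpf library is which. Its replicates at 48 hpf differ in morpholino, and this difference is part of the error of every value below. A single variance per miRNA was fitted to both stages, and most of the libraries behind it are those of 24 hpf. Where the 48 hpf libraries stood further apart than those of 24 hpf, the SE and the adjusted p therefore understate the spread at 48 hpf. Small RNA cannot show whether Tbx5a protein was depleted, so it does not check which morpholino a library received. The morpholino names of the later pair of libraries may be exchanged, because the direction of their difference in the deposited table is the reverse of that in the study's own lists. These libraries are therefore called by their labels, and any statement on the morpholino of one of them holds for the label only.

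miRNAs are short RNAs cut from hairpin precursors, and an Argonaute protein uses 1 arm of the hairpin, 5p or 3p, to recognise messenger RNAs that are then repressed. In the early zebrafish embryo the miR-430 family, made from the onset of zygotic transcription, clears maternal messenger RNAs. Later miRNAs are mostly restricted to tissues, such as miR-9 and miR-124 in the nervous system, miR-1 and miR-133 in muscle and miR-203 in the epidermis. Between 24 and 48 hpf the embryo passes from the end of segmentation to hatching, while organs such as the brain, muscle, pancreas and circulation mature. In whole embryos, fewer cells of a type and less of a miRNA per cell cannot be told apart.

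The deposited values are reads divided by a size factor of each library, called normalised reads here. A read was worth between 0.466 and 1.87 of them. By this step the libraries held 1940327 and 2542309 reads at 48 hpf, against 1699876 to 3148888 at 24 hpf. The study lists fewer miRNA reads for every library, and in its list both 48 hpf libraries lie below all those of 24 hpf. The reason for this difference was not tested. All values of the 24 hpf libraries were whole multiples of the step within 0.1 reads. In each 48 hpf library 1 value was not, and both belonged to miR-19a-3p. The precision of low values is limited by counting, and 3 reads were worth 1.40 to 5.61 normalised reads. The deposited values summed to 1062040 and 1185480 at 48 hpf, against 2671390 to 3186860 at 24 hpf, so a miRNA with an equal deposited value at both stages took a larger share of the library at 48 hpf. No measure of total miRNA per embryo was used here, and each change is therefore given in deposited values and as a share of the library total. That total is the sum over the 230 mature miRNAs of the deposited data, after averaging of precursor rows. The study reports more mature miRNAs per library than these.

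Of the 214 miRNAs, 42 (19.6%) were higher and 71 (33.2%) were lower at 48 hpf in deposited values at a limma adjusted p under 0.05. By shares, 145 (67.8%) were higher and 12 (5.61%) lower. The median log2 fold change of all 214 was -0.29 in deposited values and 1.08 in shares, a shift of 1.37. With size factors recomputed as median ratios it was 0.02, with 57 higher and 51 lower, and with shares of the total without miR-430 it was 0.19, with 62 higher and 34 lower. The scalings differed mainly by a shift common to all miRNAs, with deposited values and shares at its ends, so they are not independent checks. The direction held under all 4 scalings for the same 42 that were higher in deposited values (19.6%) and for the 12 that were lower in shares (5.61%). Without the library labelled MO-Tbx5a 48 hpf these counts were 34 and 9, and without that labelled MO-Ct 48 hpf they were 54 and 17. For 22 miRNAs the call itself turned round, lower in deposited values and higher in shares. Below, rose and fell without a further word are used of the 42 and the 12, and the remaining calls are named with their scaling.

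**Figure D1:**
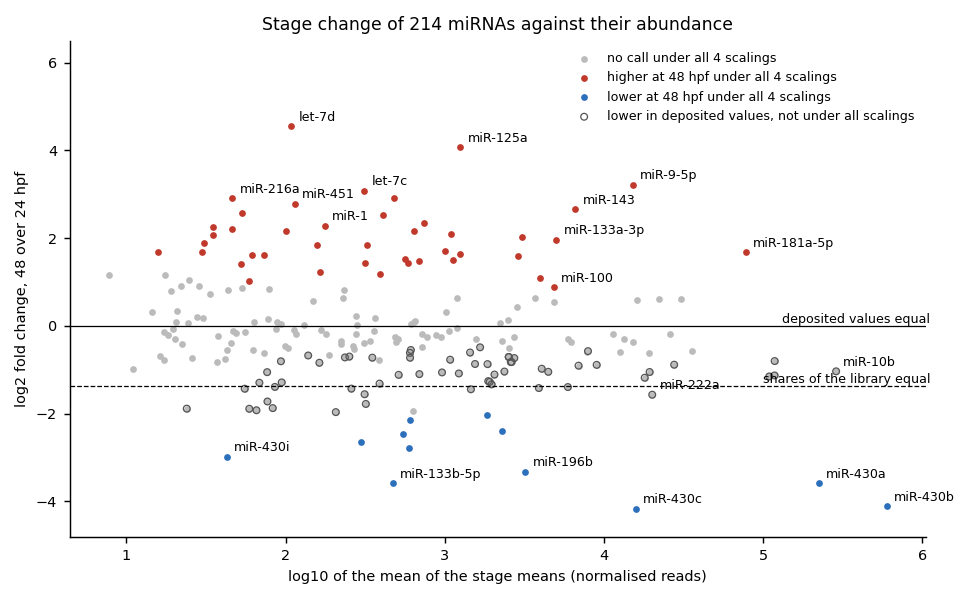
Log2 fold change of 48 over 24 hpf in deposited values for each of 214 miRNAs, plotted against the log10 of the average of its stage means in normalised reads. The solid line marks an equal deposited value and the dashed line an equal share of the library, 1.37 below it. The 42 red points lie between 0.89 and 4.56 and the 12 blue points between -4.17 and -2.03. The 59 open circles were lower in deposited values alone or in some scalings, and most of them lie between the solid line and the dashed line.

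The most abundant family at 24 hpf, miR-430, lost most of its place in the libraries by 48 hpf. Its 4 members in the table took 5.15% and 15.2% of the library total at 48 hpf, against 58.7, 53.3, 51.0 and 46.0% at 24 hpf. The means were 10.2 ± 7.10% (SD, n = 2) at 48 hpf and 52.3 ± 5.23% (SD, n = 4) at 24 hpf. The stages did not overlap, and the two-sided exact permutation p was 0.133, the smallest that 2 libraries against 4 can give. Summed over all precursor rows, where the several copies of a hairpin each count the same reads, the family held 6.70% and 21.2% at 48 hpf, against 68.0, 63.1, 61.3 and 56.1% at 24 hpf.

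Each miR-430 member fell. miR-430b, which ranked 1 in abundance at 24 hpf, had 35363 and 115965 normalised reads at 48 hpf, against 1331390.0, 1090750.0, 1146250.0 and 906023 at 24 hpf. Its log2 fold change was -4.11 ± 0.47 (SE) in deposited values (limma adjusted p = 0.000236) and -2.72 in shares. miR-430a, which ranked 2 at 24 hpf, had 18533 and 60828 at 48 hpf, against 497399, 383270.0, 449521 and 301823 at 24 hpf, with a log2 fold change of -3.58 ± 0.46 (SE). Both 48 hpf libraries lay far below the 24 hpf range, yet miR-430b still ranked 4 in abundance at 48 hpf and miR-430a ranked 7. miR-430c had 781 and 3343 at 48 hpf, against 37156, 29215, 29828 and 22031 at 24 hpf, and its log2 fold change of -4.17 ± 0.49 (SE) was the lowest of all 214. The minor member miR-430i had 5.47 and 10.7 at 48 hpf, against 88.0, 73.4, 101 and 47.8 at 24 hpf and a log2 fold change of -2.98 ± 0.41 (SE). Set against the 24 hpf libraries alone, the library labelled MO-Tbx5a gave a log2 fold change of -4.97 for miR-430b, -4.44 for miR-430a and -5.21 for miR-430c, and the library labelled MO-Ct gave -3.26, -2.72 and -3.12.

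**Figure D2:**
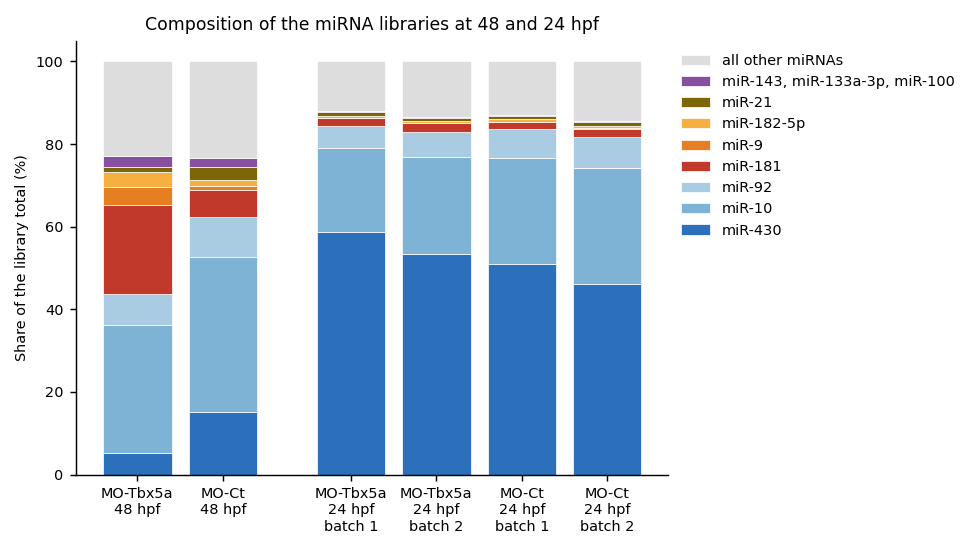
Share of the library total in percent held by named miRNAs in each library, with the 48 hpf libraries on the left and the 24 hpf libraries on the right. miR-430 holds 5.15% and 15.2% at 48 hpf, against 46.0 to 58.7% at 24 hpf, and miR-181 holds 21.6% and 6.60%, against 1.71 to 2.00%.

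Outside miR-430 the libraries were led at both stages by the miR-10 family, whose genes lie in the Hox clusters. miR-10b took 14.4 and 19.2% at 48 hpf, against 11.2, 12.6, 13.2 and 14.99 at 24 hpf, and ranked 1 in abundance at 48 hpf and 3 at 24 hpf. In deposited values it was lower at 48 hpf, with a log2 fold change of -1.03 ± 0.30 (SE) and a limma adjusted p of 0.0182, while in shares the value was 0.36 (adjusted p = 0.223). miR-92a, of the miR-17-92 cluster, took 5.46 and 6.59% at 48 hpf, against 4.65, 4.75, 5.41 and 5.47 at 24 hpf, and ranked 6 at both stages. Its log2 fold change was -1.15 in deposited values and 0.25 in shares. As few as 5 miRNAs made up the first 50% of each 48 hpf library, against 2 or 3 in the 24 hpf libraries, and 34 and 32 made up 90%, against 15 to 18. Without miR-430 these numbers were 33 and 34 for 90% of the total at 48 hpf, against 27 to 30 at 24 hpf.

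miR-181a-5p, a miRNA abundant in brain and lymphoid tissue, ranked 2 at 48 hpf and 9 at 24 hpf. It had 184767 and 59966 normalised reads at 48 hpf, against 33504, 34418, 32042 and 31359.5 at 24 hpf, or 17.4 and 5.06% at 48 hpf, against 1.05, 1.22, 1.01 and 1.17 at 24 hpf. Its log2 fold change was 1.68 ± 0.39 (SE) in deposited values (limma adjusted p = 0.00652) and 3.08 in shares. The values at 24 hpf lay close together, whereas the 48 hpf libraries differed widely, and the change was 2.49 with the library labelled MO-Tbx5a alone and 0.87 with that labelled MO-Ct alone. miR-181c rose likewise, with 7149 and 2751 at 48 hpf, against 786, 897, 1439 and 1341 at 24 hpf and a log2 fold change of 2.04 ± 0.39 (SE). miR-181b, with 29255 and 11284 at 48 hpf, against 12919, 12043, 12165 and 10914 at 24 hpf, was not called in deposited values. For it, the library labelled MO-Tbx5a lay above the 24 hpf range and that labelled MO-Ct within it.

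Of the 15 neural miRNAs tested, 9 rose, against 19.6% of all miRNAs, none was lower in deposited values, against 33.2%, and by shares all 15 were higher, against 67.8%. Their median log2 fold change was 1.44 in deposited values, against -0.29 for all miRNAs. miR-9, a regulator of neural progenitors, rose most among the abundant ones. miR-9-5p had 44772 and 11063 normalised reads at 48 hpf, against 1832, 2300.1, 2678 and 2912 at 24 hpf, with a log2 fold change of 3.22 ± 0.47 (SE) (limma adjusted p = 0.000695), and ranked 9 in abundance at 48 hpf and 53 at 24 hpf. The other arm, miR-9-3p, had 1386 and 340.2 at 48 hpf, against 76.7, 84.9, 115 and 85.0 at 24 hpf, with a log2 fold change of 2.91 ± 0.48 (SE). Neither arm overlapped between stages, and the change of miR-9-5p was 4.22 with the library labelled MO-Tbx5a alone and 2.21 with that labelled MO-Ct alone. The corresponding values of miR-9-3p were 3.92 and 1.90.

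miR-124, the typical miRNA of differentiated neurons, had 721 and 236 at 48 hpf, against 140.4, 135, 176 and 156 at 24 hpf, a smaller change of 1.44 ± 0.40 (SE). With the library labelled MO-Ct alone its change was 0.64 and was not called. miR-138, known in zebrafish also from the patterning of the heart chambers, had 2657 and 1160.2 at 48 hpf, against 533, 528, 653 and 538 at 24 hpf, with a log2 fold change of 1.64 ± 0.31 (SE). miR-153c, expressed in brain, had 2172 and 1170.4 at 48 hpf, against 438, 495, 705 and 648 at 24 hpf, a change of 1.504 ± 0.30 (SE), while its relative miR-153b, with 921 and 1452 at 48 hpf, against 1192, 1371, 1149 and 1099 at 24 hpf, did not pass the test. The stages overlapped for miR-153b. The remaining neural miRNAs that rose were miR-129-5p, miR-137, miR-153a and miR-218b, with log2 fold changes of 2.20, 1.61, 1.18 and 1.62. The calls of miR-129-5p, miR-137 and miR-153a were each lost without the library labelled MO-Tbx5a 48 hpf, at 1.51, 1.18 and 0.66. miR-128, the most abundant neural miRNA at 24 hpf, had 7048 and 4502 at 48 hpf, against 3856, 3471, 4470.0 and 3633 at 24 hpf, and in deposited values its change of 0.55 ± 0.23 (SE) did not pass (limma adjusted p = 0.0673), although it did in shares at 1.95. miR-219, a miRNA of oligodendrocytes, had 1251 and 1629 at 48 hpf, against 621, 978, 998 and 1175 at 24 hpf, with a log2 fold change of 0.63 in deposited values that was not called.

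The let-7 family and the list of miR-99, miR-100 and miR-125 gave the 2 largest rises, those of let-7d and miR-125a. Not all let-7 members were called. let-7 and miR-125 are the vertebrate relatives of the timing miRNAs let-7 and lin-4 of C. elegans, which control the order of larval stages. All 5 members of miR-99, miR-100 and miR-125 rose, against 19.6% of all miRNAs, with a median log2 fold change of 2.35. miR-125a had 3918 and 873 normalised reads at 48 hpf, against 97.3, 85.1, 118 and 138 at 24 hpf, a log2 fold change of 4.08 ± 0.51 (SE) (limma adjusted p = 0.000386). With the library labelled MO-Tbx5a alone it was 5.16, and with that labelled MO-Ct alone 2.99. miR-99 had 861 and 536 at 48 hpf, against 121, 101, 112 and 132 at 24 hpf, and miR-125c had 1358 and 1119.6 at 48 hpf, against 198, 209, 254 and 316 at 24 hpf. Their log2 fold changes were 2.53 ± 0.26 (SE) and 2.35 ± 0.25 (SE), and both 48 hpf libraries stood close together for miR-125c. For miR-99 the change was 2.87 with the library labelled MO-Tbx5a alone and 2.19 with that labelled MO-Ct alone. miR-125b had 1492 and 627 at 48 hpf, against 199.6, 186, 266 and 214 at 24 hpf, a change of 2.16 ± 0.34 (SE), or 2.79 and 1.54 with the libraries labelled MO-Tbx5a and MO-Ct alone. The most abundant of the group, miR-100, had 7028 and 5523 at 48 hpf, against 3331, 2850.0, 3584 and 3766 at 24 hpf, and its change of 0.89 ± 0.20 (SE) was the lowest of the 42.

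Among the 9 let-7 miRNAs tested, 3 rose, against 19.6% of all miRNAs, and 6 were not called in deposited values, with a median of 0.17. let-7d had 386 and 40.8 normalised reads at 48 hpf, against 3.74, 3.58, 5.32 and 1.84 at 24 hpf. Its log2 fold change of 4.56 ± 0.78 (SE) was the highest of all, but the 24 hpf values rest on 2 to 4 reads per library, and the estimate was 5.01 with a pseudocount of 0.5 and 3.39 with one of 10. With the library labelled MO-Tbx5a alone it was 6.15 and with that labelled MO-Ct alone 2.97. let-7d passed the minimum value through the 48 hpf libraries alone, so its call and its rank are not independent of that filter. let-7c, next to miR-99 and miR-125c in the genome, had 932 and 209 at 48 hpf, against 52.4, 46.6, 31.9 and 83.6 at 24 hpf, a log2 fold change of 3.08 ± 0.57 (SE), with 4.15 and 2.01 from the same 2 libraries alone. let-7a, the most abundant member, had 2845 and 472 at 48 hpf, against 313, 362, 366 and 388 at 24 hpf. Its change was 1.70 ± 0.57 (SE), or 2.99 with the library labelled MO-Tbx5a alone and 0.40 with that labelled MO-Ct alone, and the call was lost in 5 of the 6 fits that left out 1 library. let-7g, with 555 and 249 at 48 hpf, against 339.7, 368, 285 and 331 at 24 hpf, and let-7e, with 184 and 150.2 at 48 hpf, against 182, 166, 234 and 180.1 at 24 hpf, were not called. Members of let-7 differ by few bases, and reads could be split between them by the counting. The whole family held 0.481% and 0.1005% of the library at 48 hpf, against 0.0325 to 0.0424% at 24 hpf.

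In muscle, miR-1 and miR-133a-3p, made together in heart and skeletal muscle, rose. miR-1 had 248 and 335 normalised reads at 48 hpf, against 39.3, 65.8, 45.9 and 92.3 at 24 hpf (log2 fold change 2.28 ± 0.37 (SE), limma adjusted p = 0.00118). miR-133a-3p had 7518 and 8369 at 48 hpf, against 1716, 1737, 2190.1 and 2597 at 24 hpf, with a change of 1.97 ± 0.22 (SE) and an adjusted p of 0.000236. In both, the 48 hpf libraries stood close together and lay above every 24 hpf library. miR-206 and miR-133b, made together in skeletal muscle, did not rise. miR-206 had 1366 and 2507 at 48 hpf, against 3010.4, 2659.7, 3632 and 3938 at 24 hpf, lower at 48 hpf in deposited values at -0.82 ± 0.28 (SE) and at 0.57, not called, in shares. With the library labelled MO-Ct alone its change was -0.38 and was not called. miR-133b-3p had 643 and 744 at 48 hpf, against 719, 672, 987 and 997 at 24 hpf, a change of -0.26 in deposited values that was not called. miR-133a-3p and miR-133b-3p are almost identical in sequence, so reads could be split between them. The heart and slow muscle miRNA miR-499 had 134 and 222 at 48 hpf, against 99.2, 118, 113 and 139.7 at 24 hpf and was not called in deposited values.

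miRNAs of smooth muscle, cartilage and fin mesenchyme rose in 5 of the 7 cases tested, against 19.6% of all miRNAs, with a median log2 fold change of 1.59. miR-143, which with miR-145 marks smooth muscle in mammals, had 13735 and 9122 normalised reads at 48 hpf, against 1735, 1524, 2059.8 and 1827 at 24 hpf. Its log2 fold change of 2.65 ± 0.22 (SE) had the lowest limma adjusted p of all rises, 5.9e-05, and the library labelled MO-Tbx5a alone gave 2.95 and that labelled MO-Ct alone 2.36. miR-145 had 127 and 59.2 at 48 hpf, against 7.49, 17.02, 13.3 and 16.5 at 24 hpf, a change of 2.56 ± 0.46 (SE), at much lower values. miR-199 and miR-214, 2 mesenchymal miRNAs made from 1 transcript, were higher in both 48 hpf libraries than in any at 24 hpf. miR-214 had 548 and 465 at 48 hpf, against 112, 117, 166 and 168 at 24 hpf, miR-199-3p 4998 and 3631 at 48 hpf, against 1123, 1408, 1471 and 1708 at 24 hpf and miR-199-5p 1057 and 980.2 at 48 hpf, against 302, 356, 384 and 419.9 at 24 hpf, with log2 fold changes of 1.85, 1.59 and 1.48. In deposited values the arms of the cartilage hairpin miR-140 stayed near their 24 hpf level. miR-140-3p had 2499 and 2719 at 48 hpf, against 2360.0, 2434, 2484 and 2270.4 at 24 hpf, a log2 fold change of 0.13 in deposited values that was not called. It was called higher under each of the other scalings. In shares miR-140-3p was higher at 1.52 and miR-140-5p at 1.26, where 67.8% of all miRNAs were higher.

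**Figure D3:**
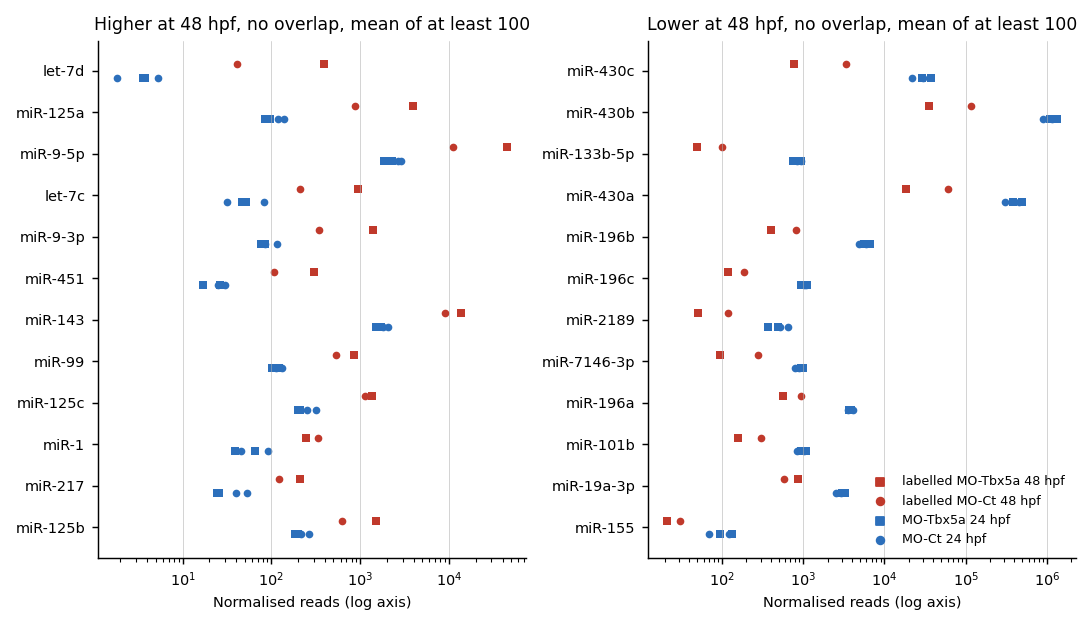
Normalised reads, on a log axis, in each library for the 12 miRNAs with the highest (left) and the 12 with the lowest (right) log2 fold change in deposited values among those with a mean of at least 100 in a stage and no overlap of the stages in values or shares. Red points are the 48 hpf libraries, drawn above the blue 24 hpf points, and squares stand for MO-Tbx5a and circles for MO-Ct. The separation of the stages was a condition of the choice. For miR-9-5p the 48 hpf values of 44772 and 11063 stand apart by more than the 4 values at 24 hpf.

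Pancreatic miRNAs rose as a cluster. miR-216a, miR-216b and miR-217, which neighbour each other and are known from the pancreas, had log2 fold changes of 2.92, 2.09 and 2.16. miR-216b, the most abundant, had 2153 and 1403 normalised reads at 48 hpf, against 262, 372, 519.9 and 535 at 24 hpf (limma adjusted p = 0.000969), and miR-217 had 210.2 and 121 at 48 hpf, against 24.3, 26.0, 53.2 and 39.5 at 24 hpf. miR-216a, at 113 and 51.3 at 48 hpf, against 5.61, 5.37, 22.6 and 6.43 at 24 hpf, was close to the limit of counting at 24 hpf. The islet miRNA miR-375, with 619 and 684 at 48 hpf, against 473, 475, 874 and 691 at 24 hpf, was not called in deposited values, and nor was miR-192 of gut and kidney, with 5848 and 4892 at 48 hpf, against 6589.8, 6604, 6682 and 6273 at 24 hpf. The liver miRNA miR-122 had 37.2 and 13.1 at 48 hpf, against 9.36, 4.48, 9.31 and 1.84 at 24 hpf, a rise of 1.69 ± 0.63 (SE) that was lost in 4 of the 6 fits that left out 1 library. It passed the minimum value through the 48 hpf libraries alone. miR-7a, of pancreatic and neural endocrine cells, rose with 75.0 and 40.9 at 48 hpf, against 6.86, 17.3, 9.75 and 15.3 at 24 hpf, while miR-7b was lower in deposited values, with 46.5 and 50.8 at 48 hpf, against 124, 86.0, 91.8 and 116 at 24 hpf and a change of -1.05 (0.30, not called, in shares). The rows of the several precursors of a mature miRNA were farthest apart for miR-7a and, after it, for miR-99, and their averages are used here.

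Among 6 blood miRNAs 1 rose, near the 19.6% of all miRNAs, and among 6 vascular ones none did. miR-451, an erythroid miRNA cut by Argonaute 2 without Dicer, had 299 and 106 normalised reads at 48 hpf, against 26.2, 17.02, 25.3 and 30.3 at 24 hpf, with a log2 fold change of 2.78 ± 0.44 (SE) (limma adjusted p = 0.00111). With the library labelled MO-Tbx5a alone the change was 3.52 and with that labelled MO-Ct alone 2.05. Its neighbour miR-144 had 143 and 64.3 at 48 hpf, against 46.8, 43.9, 69.2 and 53.3 at 24 hpf and was not called in deposited values at 0.85. miR-150, of lymphocytes in mammals, had 47.1 and 44.3 at 48 hpf, against 155, 128, 87.8 and 130.5 at 24 hpf, lower in deposited values at -1.39 ± 0.30 (SE) and at -0.03, not called, in shares. The endothelial miR-126a-3p had 740.0 and 895 at 48 hpf, against 973, 1061, 802 and 922 at 24 hpf and a log2 fold change of -0.20 that was not called. miR-222a, which ranked 10 at 24 hpf, had 6607 and 14852 at 48 hpf, against 27398, 31230.2, 30017 and 28920.5 at 24 hpf, a change of -1.57 ± 0.31 (SE) in deposited values, and held 0.622 and 1.25% at 48 hpf, against 0.861, 1.11, 0.942 and 1.08 at 24 hpf, with no call in shares. miR-126a-5p and miR-126b-5p had values with a ratio between 0.9992 and 1.0006 in every library, so their reads cannot be told apart, and both were lower in deposited values at -0.71 and higher in shares at 0.69.

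Sensory miRNAs rose in 1 of 5 cases, near the 19.6% of all miRNAs. miR-204, of the lens and the retinal pigment epithelium, had 5703 and 4943 normalised reads at 48 hpf, against 1699, 2341, 2679 and 3635 at 24 hpf, with a log2 fold change of 1.09 ± 0.28 (SE) (limma adjusted p = 0.011). The cluster of miR-182, miR-183 and miR-96, known from hair cells and photoreceptors, was not called in deposited values. miR-182-5p, which ranked 10 at 48 hpf, had 38892 and 16426 at 48 hpf, against 14256, 14214, 19821 and 18184 at 24 hpf, so the library labelled MO-Tbx5a was above the 24 hpf range and that labelled MO-Ct within it. In shares all 5 were higher, against 67.8% of all miRNAs.

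Further rises were those of miR-187, miR-734, miR-724, miR-723-3p, miR-1788-3p, miR-135c, miR-210-3p and both arms of miR-2188. miR-210-3p, induced by hypoxia in many cell types, had 939.8 and 649.6 at 48 hpf, against 211, 126, 718 and 283 at 24 hpf, and here the stages overlapped. Its call (limma adjusted p = 0.0497) was lost in 4 of the 6 fits that left out 1 library. miR-135c kept its call in 1 of those 6 fits and miR-1788-3p in 2, and without the library labelled MO-Tbx5a 48 hpf the log2 fold change of miR-135c was 0.52, that of miR-1788-3p 0.85, that of miR-734 1.21 and that of miR-723-3p 1.45, none of them called. miR-724, a fish miRNA, had 1067 and 649 at 48 hpf, against 217, 339, 322 and 368 at 24 hpf, a log2 fold change of 1.44 ± 0.29 (SE). miR-2188-5p had 394 and 115 at 48 hpf, against 58.0, 55.5, 59.8 and 58.8 at 24 hpf, a change of 1.84 ± 0.43 (SE), or 2.72 with the library labelled MO-Tbx5a alone and 0.97 with that labelled MO-Ct alone. miR-187 had 59.7 and 56.4 at 48 hpf, against 3.74, 17.9, 10.6 and 15.6 at 24 hpf. Of 25 fish miRNAs tested, 5 rose and 1 fell, near the 19.6% and 5.61% of all miRNAs.

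Falls that held in shares were few. Outside miR-430 the largest in deposited values was that of miR-133b-5p, given below, followed by that of miR-196b. miR-196, like miR-10, lies in the Hox clusters and in vertebrates targets Hox genes of the trunk. miR-196b had 399.6 and 824 normalised reads at 48 hpf, against 6573, 5669.6, 6024 and 4895 at 24 hpf, a log2 fold change of -3.32 ± 0.28 (SE) (limma adjusted p = 5.9e-05) and of -1.92 in shares. miR-196c had 119.9 and 186 at 48 hpf, against 936, 1103, 1029 and 1091 at 24 hpf, and miR-196a had 565 and 939 at 48 hpf, against 3689, 3942, 4126 and 3523 at 24 hpf. Their log2 fold changes were -2.78 ± 0.23 (SE) and -2.39 ± 0.23 (SE), and -1.39 and -0.99 in shares. miR-196d, with 135 and 151 at 48 hpf, against 539, 509, 497 and 434 at 24 hpf, was lower in deposited values at -1.78 and missed the threshold in shares at -0.39 (adjusted p = 0.0685). The miR-10 family as a whole held 31.0% and 37.6% of the library at 48 hpf, against 20.3 to 28.2% at 24 hpf, while miR-10d-5p, with 37772 and 35009 at 48 hpf, against 17879, 18778, 29477 and 32978 at 24 hpf, was the 1 abundant member with a positive change in deposited values, 0.61, and was not called there. Of the 10 miRNAs of the Hox clusters, 8 were lower in deposited values, against 33.2% of all miRNAs, and in shares 3 were lower and 3 higher, against 5.61% and 67.8%.

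The other falls were miR-133b-5p, miR-101b, miR-2189, miR-7146-3p and miR-19a-3p. miR-133b-5p, the other arm of the miR-133b hairpin, had 49.3 and 99.8 normalised reads at 48 hpf, against 936, 759.5, 949 and 832 at 24 hpf, a log2 fold change of -3.59 ± 0.29 (SE) (limma adjusted p = 5.9e-05) and -2.19 in shares. miR-101b, whose family targets the methyltransferase EZH2 in mammals, had 158 and 299 at 48 hpf, against 1089, 938, 1033 and 846 at 24 hpf, with a change of -2.15 ± 0.27 (SE), or -2.60 and -1.69 with the libraries labelled MO-Tbx5a and MO-Ct alone. Its paralog miR-101a, with 306 and 229.9 at 48 hpf, against 374, 313, 432 and 296 at 24 hpf, was not called in deposited values. miR-2189 had 51.5 and 118 at 48 hpf, against 372, 489, 650.2 and 516 at 24 hpf, and miR-7146-3p had 94.7 and 277 at 48 hpf, against 999, 951, 883 and 786 at 24 hpf. Their changes were -2.64 ± 0.35 (SE) and -2.46 ± 0.37 (SE), with -3.22 for miR-7146-3p in the library labelled MO-Tbx5a alone and -1.70 in that labelled MO-Ct alone. For miR-2189 these were -3.22 and -2.06. miR-19a-3p, of the miR-17-92 cluster, had 858 and 589 at 48 hpf, against 3286, 2979, 2932 and 2530.4 at 24 hpf, a change of -2.03 ± 0.21 (SE), and its 48 hpf values are those that were no whole number of reads. The study states that the 48 hpf change it lists for miR-19a-3p was taken from its earlier published data. The deposited values may therefore not be counts of the present libraries, and whether they have that origin was not tested. miR-155, a miRNA of activated immune cells, had 21.4 and 30.3 at 48 hpf, against 135, 94.0, 122 and 69.8 at 24 hpf, lower in deposited values at -1.92 ± 0.35 (SE) and at -0.57, not called, in shares. miR-34a, induced by p53 in mammals, had 83.7 and 541 at 48 hpf, against 1566, 1295, 379 and 591 at 24 hpf, where the stages overlapped and the log2 fold change of -1.93 was not called.

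The miR-17-92 clusters and the miR-15 group were mostly lower in deposited values, with positive medians in shares. Under all 4 scalings their medians lay below that of all miRNAs. A scaling moves all miRNAs by nearly the same amount, so these are not 4 separate checks. In miR-17-92 and its paralogous clusters, which promote proliferation, 17 of 20 were lower in deposited values, against 33.2% of all miRNAs, with a median log2 fold change of -1.12. In shares the median was 0.27, with 6 higher and 1 lower, against 67.8% and 5.61% of all miRNAs. It was -0.64 in shares without miR-430 and -0.82 with median ratios, against 0.19 and 0.02 for all miRNAs. miR-20a-5p had 1072 and 1163 normalised reads at 48 hpf, against 2731, 2601, 2906 and 2594 at 24 hpf (log2 fold change -1.27, and 0.12 in shares), and the 48 hpf libraries lay close together. Of the 12 miRNAs of the group of miR-15, miR-16, miR-103 and miR-107, which share a related seed, 8 were lower in deposited values, against 33.2% of all miRNAs, with a median of -0.77. In shares 8 of the 12 were higher, near the 67.8% of all miRNAs, with a median of 0.61. The median was -0.29 in shares without miR-430 and -0.46 with median ratios. miR-15b had 4864 and 4746 at 48 hpf, against 8749.5, 8937, 10046 and 8354 at 24 hpf, a change of -0.91 in deposited values and of 0.49 in shares.

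Epidermal and epithelial miRNAs gave 6 of 10 lower in deposited values, against 33.2% of all miRNAs, and 5 higher in shares, against 67.8%, with medians of -1.01 and 0.39. miR-203a, which restrains epidermal progenitors in mammals, had 2338 and 4412 normalised reads at 48 hpf, against 9187, 9191, 8030.4 and 7472 at 24 hpf, a log2 fold change of -1.39 ± 0.26 (SE) in deposited values and of 0.00 in shares. miR-203b-3p, the most abundant epidermal miRNA at 24 hpf, had 8882 and 17170.2 at 48 hpf, against 25547, 27229, 25784 and 23862 at 24 hpf, and miR-205, also of the epidermis, had 14888 and 15132 at 48 hpf, against 23009, 17459, 29054 and 24514 at 24 hpf and was not called in deposited values. The epithelial cluster of miR-200a, miR-200b and miR-429a, whose family represses ZEB genes in mammals, changed by -1.04, -1.42 and -0.98 in deposited values and by 0.36, -0.02 and 0.42 in shares, where miR-429a alone was called. The paralogous pair miR-200c and miR-429b, with 308 and 384 at 48 hpf, against 391, 374, 380.3 and 345 at 24 hpf for miR-200c, was not called in deposited values. Vascular miRNAs were lower in 5 of 6 cases in deposited values, against 33.2% of all miRNAs, and higher in 4 in shares, near the 67.8% of all, with medians of -0.77 and 0.63. Both the 5 and the 4 count miR-126a-5p and miR-126b-5p separately, although their reads cannot be told apart.

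Lists with a median nearer to that of all miRNAs were miR-23, miR-24 and miR-27 (-0.49 in deposited values, with 3 of 8 lower), miR-130, miR-301 and miR-454 (-0.38, with 2 of 8 lower), miR-30 (-0.58, with 3 of 6 lower) and the group of miR-26, miR-29, miR-101, miR-148 and miR-152 (-0.36, with 2 of 7 lower), where 33.2% of all miRNAs were lower. In shares these 4 had medians of 0.87, 1.01, 0.82 and 1.04, and the calls in them were of rises, apart from miR-101b. miR-30e-5p, which ranked 8 at 24 hpf, had 17493 and 21349 normalised reads at 48 hpf, against 37418, 33475, 36934 and 34916 at 24 hpf, a log2 fold change of -0.88 in deposited values and of 0.51 in shares. miR-454b, the most abundant of its list, had 7717 and 15082 at 48 hpf, against 20441, 25739, 26086 and 26085 at 24 hpf, lower in deposited values at -1.18 and at 0.22, not called, in shares. Immune-linked miRNAs had 1 of 6 lower, miR-155, against 33.2% of all miRNAs. miR-21, a miRNA induced in stressed and proliferating tissue, had 13211 and 39188 at 48 hpf, against 27415, 23033, 28607 and 24393 at 24 hpf, and miR-146a had 117 and 548 at 48 hpf, against 487, 458, 378 and 429 at 24 hpf. For both, the library labelled MO-Tbx5a lay below the 24 hpf range and that labelled MO-Ct above it.

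**Figure D4:**
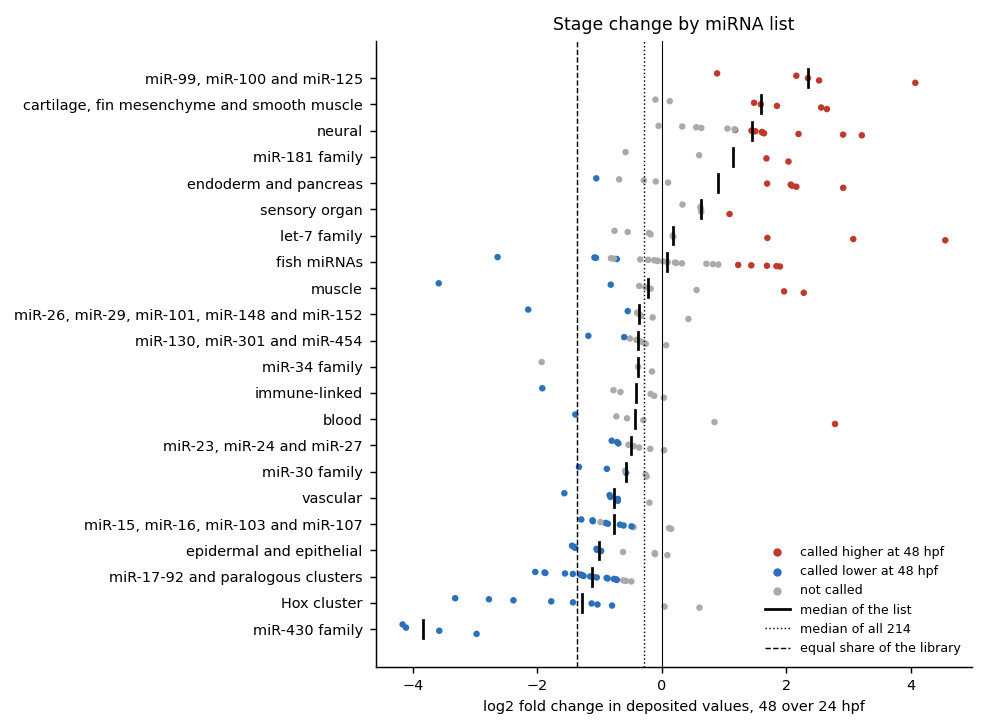
Log2 fold change of 48 over 24 hpf in deposited values for each tested member of 22 lists, ordered by the median of the list (black bar). Red points were called higher at 48 hpf and blue points lower, and the dotted line is the median of all 214 miRNAs at -0.29. The list of miR-99, miR-100 and miR-125 stands at a median of 2.35 and the miR-430 family at -3.85, while most members of miR-17-92 lie between the solid line and the dashed line of an equal share.

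Neighbouring miRNA genes went the same way where they were called in deposited values. Of 255 precursors, 239 were matched by name to genes of the RefSeq annotation of assembly GRCz12tu, and those within 10 kb of each other gave 39 clusters with at least 2 tested miRNAs. Some miRNAs, such as let-7a, lie in several clusters, and the arms of a hairpin count as members of the same cluster. The clusters are therefore not independent of each other. In 20 clusters at least 2 miRNAs were called in deposited values and all calls went 1 way, and in 0 clusters were there calls in both directions. Over all 214 miRNAs, 33.2% were lower and 19.6% higher, and how many clusters would go 1 way by chance was not tested. In shares 1 cluster had both, that of miR-133b and miR-206, where the 3p arm of miR-133b was higher and its 5p arm lower. In the cluster of miR-17a, miR-18a, miR-19a, miR-19b, miR-20a and miR-92a, 9 of 10 miRNAs were lower in deposited values, at a median of -1.29, while their lowest change was that of miR-19a-3p at -2.03. The cluster of let-7c, miR-99 and miR-125c rose at 3.08, 2.53 and 2.35, and that of miR-216a, miR-216b and miR-217 rose in all 3. In other clusters partners differed in size, as miR-451 at 2.78 beside miR-144 at 0.85.

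The 2 arms of a hairpin are compared within the same library, so the scaling cancels in their ratio, apart from the pseudocount added to each arm. This matters where an arm is low, as in miR-18b, whose change was 0.74 with a pseudocount of 0.5 and 0.17 with one of 10. Of 24 hairpins with both arms tested, 10 (41.7%) had a ratio of 5p over 3p that differed between stages at a limma adjusted p under 0.05, a test added after the values were seen. Leaving out 1 library gave 4 to 9 calls, with 4 without the library labelled MO-Tbx5a 48 hpf, 6 without MO-Tbx5a 24 hpf batch 1 and 4 without MO-Tbx5a 24 hpf batch 2, and 4 hairpins, miR-133b, miR-133a, miR-181a and miR-19a, were called in each of those fits and with both other pseudocounts. In miR-133b the log2 ratio was -3.65 and -2.87 at 48 hpf, against 0.38, 0.18, -0.06 and -0.26 at 24 hpf, a change of -3.32 ± 0.25 (SE) (limma adjusted p = 7.4e-08). At 24 hpf the arms were near equal, and at 48 hpf the 3p arm was in excess. In miR-133a, where 3p was the major arm at both stages, it was -5.19 and -4.70 at 48 hpf, against -2.66, -2.67, -2.98 and -2.89 at 24 hpf, a change of -2.15 ± 0.21 (SE). miR-133a-5p itself had 204 and 320.4 at 48 hpf, against 269.5, 271, 275 and 349 at 24 hpf and was not called in deposited values, while miR-133a-3p rose. Because the 3p arms of miR-133a and miR-133b are almost identical, the 2 ratios are not independent.

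In miR-181a the 5p arm gained on the 3p arm. The log2 ratio was 4.42 and 3.84 at 48 hpf, against 1.59, 1.94, 1.87 and 2.05 at 24 hpf, a change of 2.26 ± 0.22 (SE) (limma adjusted p = 7.0e-07). miR-181a-3p had 8633 and 4197 normalised reads at 48 hpf, against 11091, 8982, 8763 and 7574 at 24 hpf, a log2 fold change of -0.58 in deposited values that was not called, beside the rise of miR-181a-5p. miR-181a-5p is made from more than 1 hairpin, so its reads need not all come from the precursor of this 3p arm. In miR-19a the ratio changed by 1.41, and it rests on the miR-19a-3p values that were no whole number of reads. The changes of miR-210, miR-727, miR-126a, miR-10d, miR-18b and miR-17a were between -0.70 and 0.61 and were each lost in at least 2 of the 8 alternatives. For miR-9, where both arms rose, the ratio was 5.01 and 5.02 at 48 hpf, against 4.54, 4.73, 4.51 and 5.07 at 24 hpf, a change of 0.30 ± 0.21 (SE) that was not called, and for miR-199 it was -0.11.

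**Figure D5:**
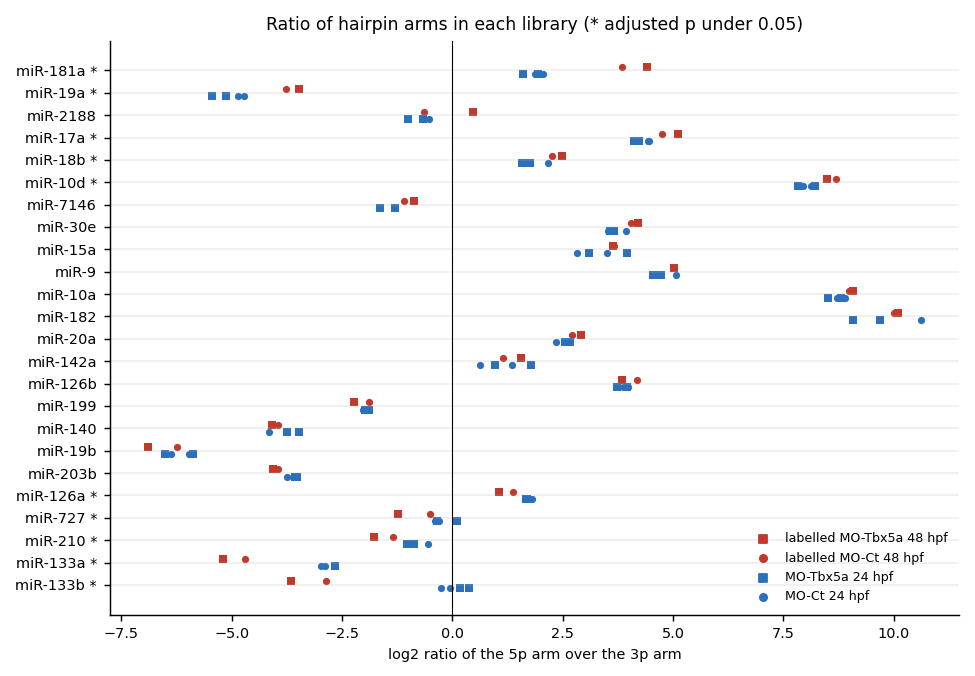
Log2 ratio of the 5p arm over the 3p arm in each library for 24 hairpins, ordered by the change between stages. Red points are the 48 hpf libraries, drawn above the blue 24 hpf points, and an asterisk marks an adjusted p under 0.05. In miR-133b the ratio was -3.65 and -2.87 at 48 hpf, against -0.26 to 0.38 at 24 hpf, and in miR-181a it was 4.42 and 3.84, against 1.59 to 2.05.

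The stage change could also be read within each morpholino, where no library is shared. The log2 changes of MO-Tbx5a and MO-Ct, as labelled, had a Pearson's r of 0.85 and a Spearman's rho of 0.77 across the 214 miRNAs. These miRNAs are not independent replicates. The sign was the same in both for 167 of the 214 (78.0%), and for all 42 rises and all 71 miRNAs lower in deposited values. The 42 and the 71 were called with both 48 hpf libraries pooled, which favours a same sign in both. The changes differed in size between the labels. The library labelled MO-Tbx5a lay further from the 24 hpf mean in 40 of the 42 rises and in 63 of the 71. These counts cover called miRNAs only and do not show whether this was particular to them. Over all 214 miRNAs, the SD of the log2 difference from a 24 hpf library was 1.70 to 1.90 for the 48 hpf library labelled MO-Tbx5a. For that labelled MO-Ct it was 1.06 to 1.29. Among miRNAs not called in deposited values, the library labelled MO-Tbx5a lay further out for miR-181b and miR-182-5p, and that labelled MO-Ct for miR-219 and miR-140-3p. These are examples and do not give the share of either library. Over miRNAs the SD of the log2 difference between the 48 hpf libraries was 0.91, against 0.43 to 0.60 between pairs of 24 hpf libraries and 1.06 to 1.90 between stages. The difference between morpholinos in the stage change passed at a limma adjusted p under 0.05 for 71 miRNAs (33.2%), 48 with the names of the 48 hpf libraries exchanged, 47 in shares and 30 without the variance trend. With 1 library per morpholino at 48 hpf, the spread in this test comes from the 24 hpf batches alone, and a difference between morpholinos cannot be told apart from a difference between the 2 batches of embryos.

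The 16 miRNAs below the minimum are described by their values alone. miR-190b had 490.4 and 6.53 normalised reads at 48 hpf, against 3.74, 5.37, 3.99 and 1.84 at 24 hpf, so it was high in the library labelled MO-Tbx5a only. let-7b had 35.6 and 2.80 at 48 hpf, against 0, 0.900, 1.33 and 3.68 at 24 hpf, with the same library high. miR-202-5p, a miRNA of the gonad, had 2.19 and 2.80 at 48 hpf, against 9.36, 9.85, 6.65 and 14.7 at 24 hpf. The highest value of any of the other 13 was 29.6, that of miR-726.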

How the data were processed

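Small RNA of whole embryos was sequenced, and the authors trimmed the reads with Cutadapt, mapped them to zebrafish precursors of miRBase with miRExpress and summed them per miRNA. The signal values deposited by the authors are these reads divided by a DESeq size factor per library. CASAVA 1.8 is also named in the submitters' processing notes, and the genome build is not given in the sources used here. Rows were averaged per mature miRNA, 230 in all from 286 rows. The 48 hpf libraries were set against those of 24 hpf with limma 3.58.1 in R 4.3.3, using log2(value + 2) and a trended prior variance. All log2 fold changes are on that scale, which understates the change of low miRNAs. Tests were two-sided, with Benjamini-Hochberg adjustment over the 214 miRNAs tested. The ratios of arms were fitted without the variance trend and adjusted over the 24 hairpins. Recovered reads served to give the depth, and no test for counts was run. The p-values of the stage comparison measure the spread between libraries of a stage, which mixes the batches of embryos with the morpholinos. That spread was taken as equal in both stages, although it was wider between the 48 hpf libraries over miRNAs. The script was tested on simulated data. Tables and the exact permutation test used Python 3.11.15, pandas 2.3.3 and scipy 1.17.1.

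Named miRNAs were up to 12 called miRNAs with the highest and 12 with the lowest change that did not overlap between stages in deposited values and in shares, with a mean of at least 100 in 1 stage, the called and the most abundant members of 22 lists, the 10 most abundant of each stage, those whose direction differed between scalings, and the other arms of these. Added after their values were seen were let-7e, let-7g, miR-101a, miR-128, miR-135c, miR-140-3p, miR-144, miR-146a, miR-153b, miR-1788-3p, miR-181b, miR-187, miR-200c, miR-205, miR-210-3p, miR-219, miR-375, miR-499 and those under the minimum. The members and lists were chosen with earlier results of these data known. Alternatives were 3 other scalings, filters, pseudocounts, the variance trend, a morpholino term, precursor rows, a fold threshold and leaving out each library.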

Additional observations from a re-analysis of the deposited data

Results flagged for a closer look

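Among the 24 miRNAs with the highest and the lowest changes in deposited values, with a mean of at least 100 in a stage and no overlap of the stages, no 24 hpf library stood apart from the other 3 by Dixon's criterion at 95%, which chance would meet in about 1 group of 20. In 9 of the 24 the stage change differed between the morpholinos by a limma interaction test under all of 4 settings. Over all 214 miRNAs this was so for 20 (9.35%), and the 24 had been chosen for the size of their stage change. The settings were the names as labelled, the 48 hpf names exchanged, shares, and no variance trend. Given as the change in MO-Tbx5a minus the change in MO-Ct, as labelled and on the log2 scale, the difference was 3.09 for let-7d, 2.64 for miR-125a, 2.46 for miR-9-5p, 2.31 for miR-9-3p and 1.55 for miR-125b. The spread in this test comes from 24 hpf, where let-7d had 2 to 4 reads per library. let-7d also passed the minimum value through the 48 hpf libraries alone, so its place among the 9 is not independent of that filter. Among those lower at 48 hpf it was -2.46 for miR-430c, -1.96 for miR-430b, -1.96 for miR-430a and -1.75 for miR-7146-3p. In all 9 both morpholinos changed in the same direction, and the change was the larger in size with the library labelled MO-Tbx5a. With 1 library per morpholino at 48 hpf, the morpholino and the batch of embryos cannot be told apart. The names of that pair of libraries may be exchanged, and with exchanged names the larger change would be that of MO-Ct.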

How the results depend on the processing

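Of 113 calls in deposited values, a log2 fold threshold of 1 left 30, with 16 higher and 14 lower. The number higher was 145 in shares, 24 with a mean of at least 200 (fewer miRNAs tested) and 73 with every precursor row kept apart (more rows tested). The number lower was 12 in shares and 34 in shares without miR-430. Under the remaining alternatives both numbers stayed within 1.5 times, and leaving out 1 library gave 88 to 139 calls. Calls under all 4 scalings ranged from 34 to 54 higher and from 9 to 17 lower, a check added after seeing the data, and 31 of the 42 and all 12 of the lower ones kept their call in deposited values in each of the 6 such fits. Without a 48 hpf library, the other was assumed to vary like those at 24 hpf. The stage change differed between morpholinos in 47 miRNAs in shares and in 30 without the variance trend, against 71. The difference in the miR-430 family share was -42.1 percentage points, and -48.2 summed over all precursor rows. Hairpins with a changed ratio of arms numbered 10, and 4 to 9 with 1 library left out. The cause of these differences between settings was not tested, except where given.

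Of 98 miRNAs given values, 27 turned from a negative change in deposited values to a positive one in shares, with either value called. The log2 values in shares were 0.27, 0.36 and 0.60 for miR-10a-5p, miR-10b and miR-10c, 0.25 and 0.12 for miR-92a and miR-20a-5p, 0.49 for miR-15b, and 1.19, 0.69 and 0.69 for miR-126a-3p, miR-126a-5p and miR-126b-5p. They were 0.36, 1.27 and 0.42 for miR-200a, miR-200c and miR-429a, 0.0042, 0.35 and 0.77 for miR-203a, miR-203b-3p and miR-205, and 0.57, 1.1998 and 1.13 for miR-206, miR-133a-5p and miR-133b-3p. The remaining values were 1.19 for let-7e, 0.99 for miR-101a, 1.34 for miR-153b, 0.81 for miR-181a-3p, 1.11 for miR-192, 1.22 for miR-21, 0.51 for miR-30e-5p, 0.22 for miR-454b and 0.30 for miR-7b. With 1 library left out, the change of miR-21 ranged from -0.96 without the library labelled MO-Ct 48 hpf to 0.605 without that labelled MO-Tbx5a 48 hpf. Of 66 list medians under the other scalings, 49 moved by more than the spread between libraries. No paired analysis was possible because the 48 hpf libraries carry no replicate numbers. Depth limits let-7d, miR-216a and other miRNAs near 3 reads at 24 hpf.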
